A study of Mus musculus with 6 samples.

Results

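The ubiquitin-conjugating enzymes, or E2 enzymes, were examined in mouse embryonic stem (ES) cells with and without the transcription factor SIM2. The members were all genes whose symbol begins with Ube2, which gave 35 of the 22602 genes in the table. 3 libraries came from the clones A6, B8 and C4, each sampled as 1 culture. These clones carry a Flag-tagged mouse Sim2 gene with an IRES-Venus cassette at the ROSA26 locus, under the hCMV*-1 promoter that a tetracycline-regulated transactivator switches on when the drug is withdrawn. The other 3 libraries, EB3-0, EB3-1 and EB3-2, were cultures of EB3 (EBRTcH3), the single parental line, which lacks the Sim2 transgene. Tetracycline was absent from the medium of both groups during the 26 h that preceded RNA collection. A difference between the groups is therefore a difference between 3 selected clones of 1 line and their parent, with SIM2 induced in the clones only.

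Ubiquitin reaches its targets through a relay. An E1 enzyme activates ubiquitin, an E2 enzyme takes it over as a thioester on a catalytic cysteine, and an E3 ligase brings the loaded E2 to the substrate. The E2 enzyme often sets the kind of chain that is built, and a few members of the family carry NEDD8 or other ubiquitin-like proteins in place of ubiquitin. In ES cells this system controls the turnover of cell cycle regulators and of transcription factors.

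Levels are RPKM, the reads per kilobase of cDNA, scaled to the library's total reads, so they can be set side by side between genes. The depth recovered from the values ranged from 25095861 to 28269340 reads a library, and 1 read in a cDNA of 2 kb was worth at most 0.0199 RPKM. The Sim2 gene itself had 168 to 212 RPKM in the clones against 0.0917 to 0.130 RPKM in EB3. The 5 ES cell markers (Pou5f1, Sox2, Nanog, Klf4 and Esrrb) summed to 2492 to 2686 RPKM in the clones compared with 2553 to 2876 RPKM in EB3, mostly from Pou5f1. By mean log2 level, 3 of the 5 were lower and 2 higher in the clones. Esrrb was one of the higher ones, at 299 to 450 RPKM in the clones against 276 to 284 RPKM in EB3. Markers of primitive endoderm summed to 3.74 to 4.46 RPKM in the clones versus 2.46 to 2.75 RPKM in EB3, and 5 of these 6 genes stayed under 1 RPKM in every library. For the 5 trophoblast markers the sums were 1.80 to 2.56 and 1.54 to 2.00 RPKM. For the 6 fibroblast markers they were 10.7 to 13.8 and 10.1 to 13.3 RPKM, mostly from Thy1. Of these 6 genes 5 stayed under 1 RPKM in every library, with Lum listed at 0 throughout. The 6 neural markers summed to 86.8 to 108 RPKM in the clones against 134 to 147 RPKM in EB3, mostly from Tubb3. The part of these markers in the values below was not tested. In bulk RNA, fewer cells of a type and less RNA per cell cannot be told apart.

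The sequence around the catalytic cysteine shows how Ube2d3 differs from related genes and how little it differs from its own copies. The stretch of 63 coding bases centred on the cysteine codon is shown for Ube2d3, for its paralog Ube2d1 and for the UBE2E genes. In Ube2d3 the cysteine is codon 85 of 147. The same stretch is shown for 4 of the copies of the Ube2d3 transcript found elsewhere in the genome. Lower case letters are the bases shared with Ube2d3, and capitals mark the bases that differ from it. Positions are 1-based in mm9 (NCBIM37), and all sequences read along the coding strand. For the named genes the positions span the whole gene, and for the copies they are those of the stretch itself. In Ube2d3 the stretch lies at chr3:135122963-135123025.
Ube2d3, chr3:135101723-135130142, plus strand: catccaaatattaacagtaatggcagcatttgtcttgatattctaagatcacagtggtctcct
Ube2d3 copy, chrX:71739877-71739939, minus strand: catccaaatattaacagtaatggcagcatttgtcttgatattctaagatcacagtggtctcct
Ube2d3 copy, chr2:23364606-23364668, plus strand: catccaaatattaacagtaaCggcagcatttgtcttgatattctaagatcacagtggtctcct
Ube2d3 copy, chr3:116231212-116231274, minus strand: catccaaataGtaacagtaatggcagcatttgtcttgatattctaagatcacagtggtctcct
Ube2d3 copy, chr12:18293144-18293206, plus strand: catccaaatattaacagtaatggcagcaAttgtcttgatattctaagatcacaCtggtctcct
Ube2d1, chr10:70717728-70748010, minus strand: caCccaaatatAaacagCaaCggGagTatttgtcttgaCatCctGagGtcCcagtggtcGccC
Ube2e1, chr14:19115243-19164358, minus strand: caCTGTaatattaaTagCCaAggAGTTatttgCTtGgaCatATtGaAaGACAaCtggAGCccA
Ube2e2, chr14:19406091-19726141, minus strand: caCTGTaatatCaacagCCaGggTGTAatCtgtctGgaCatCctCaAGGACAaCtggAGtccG
Ube2e3, chr2:78709204-78760740, plus strand: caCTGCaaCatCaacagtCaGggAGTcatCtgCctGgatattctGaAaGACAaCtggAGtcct

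The copy on chromosome X had 0 differences from Ube2d3 over this stretch, and those on chromosomes 2, 3 and 12 had 1, 1 and 2. The related genes shown had more, with 13 differences in Ube2d1, 29 in Ube2e1, 27 in Ube2e2 and 23 in Ube2e3. Ube2d2, the closest relative of Ube2d3 by coding sequence, is not among them. Over the 444 coding bases, Ube2d3 was identical to Ube2d1 at 77.3% and to Ube2d2 at 86.3% of positions. The longest run of bases shared by the transcripts was 14 for Ube2d3 and Ube2d1, and 42 for Ube2d3 and Ube2d2. A stretch of 100 bases therefore differs between these 3 paralogs, but not always between a gene and its own copies. For Ube2d3, alignments to 9 loci elsewhere in the genome covered 72.2% of the transcript, and 12.9% of its windows of 100 bases had an exact match there. The longest one (1399 aligned bases, 94.5% identity) lay at chr2:23364249-23365615, within the listed gene Spopl. The counting of reads that map equally well to more than 1 place was not described.

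The Ube2 genes covered a wide range of mRNA levels in the parental cells. In EB3, 5 members had a mean over 50 RPKM, 21 had 10 to 50 RPKM, 6 had 1 to 10 RPKM, and 3 had less than 1 RPKM. The highest was Ube2c, which starts ubiquitin chains for the anaphase-promoting complex (APC/C). Its values were 221, 180.3 and 208 RPKM in A6, B8 and C4, and 269, 220 and 213 RPKM in EB3-0, EB3-1 and EB3-2. The groups overlapped, with means of 203 ± 20.6 and 234 ± 30.7 RPKM (SD, n = 3 each). Ube2d3 followed in both groups, and Ube2z, the E2 that works with the E1 enzyme UBA6, came next. Ube2z had 96.9, 86.6 and 93.4 RPKM in the clones, and 99.2, 85.2 and 90.4 RPKM in EB3, so its groups overlapped as well. Ube2l3, the partner of HECT and RBR ligases, and Ube2m, an E2 for NEDD8, were the other members over 50 RPKM.

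**Figure D1:**
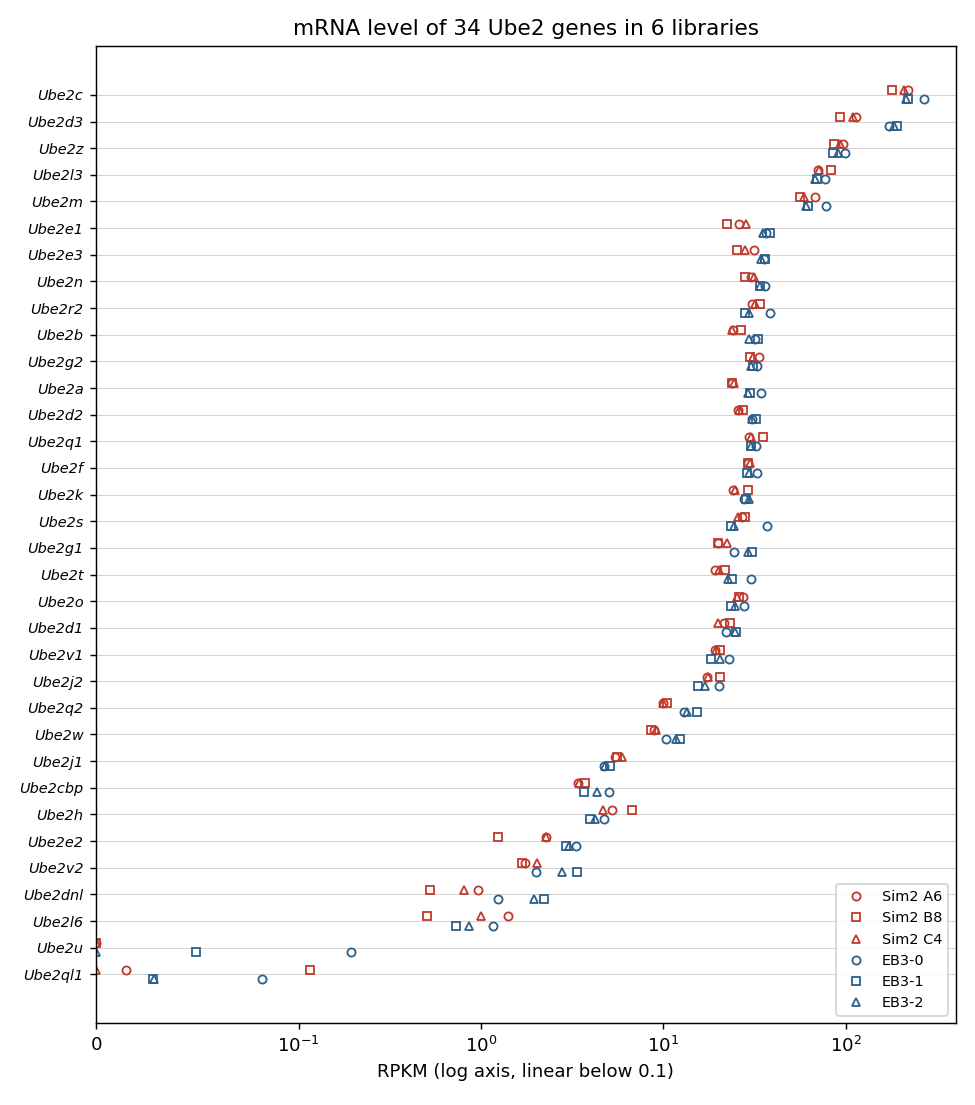
The RPKM of 34 Ube2 genes is drawn for the 6 libraries, on a log axis that is linear below 0.1, with the clones in red and EB3 in blue and the genes ordered by level. Ube2c and Ube2d3 lie farthest to the right, Ube2d3 shows 2 separate clusters of points, and Ube2u and Ube2ql1 lie at or near 0.

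3 members were too low to be tested, since testing needed a mean of at least 1 RPKM over the 6 libraries. Ube2l6, the E2 for the interferon-induced modifier ISG15, had 0.969 ± 0.453 RPKM in the clones compared with 0.916 ± 0.223 RPKM in EB3 (SD, n = 3 each). Ube2u had 0 reads in A6, B8, C4 and EB3-2, where a count of 0 allows up to 0.0700 to 0.0788 RPKM, and 0.193 and 0.0493 RPKM in EB3-0 and EB3-1. Ube2ql1 stayed between 0 and 0.116 RPKM. The other 32 members entered the comparison.

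The first question was which E2 mRNAs differed between the clones with SIM2 induced and the parental EB3 cultures. Ube2d3 was lower in the clones, and it was the only one of 32 tested members that passed the test over all genes (limma, adjusted p under 0.05). Over all 11595 tested genes, 0.354% were called lower and 0.345% were called higher, and 0 members were called higher. Ube2d3 encodes a broadly acting E2 of the UBE2D group, which serves many RING and HECT ligases. Its values were 113, 93.6 and 109.9 RPKM in A6, B8 and C4, against 173, 191 and 184 RPKM in EB3-0, EB3-1 and EB3-2. Every clone lay below every EB3 culture, and the lowest EB3 value was well above the highest clone. The means were 106 ± 10.5 and 183 ± 9.01 RPKM (SD, n = 3 each), a change of -42.4%. On the log2(RPKM + 0.5) scale, which is used for all fold changes here, the change was -0.80 with a standard error of 0.10 and a 95% interval of -1.03 to -0.57 (limma, adjusted p = 0.0216). With 3 libraries a side, an exact permutation test cannot go below 0.1, and that is the p it gave. Ube2d3 was known to be lower in these libraries when it was chosen. The study lists it for contact with a SIM2-bound region on another chromosome, from published data, and for its change in the same libraries. Its fold change therefore describes these libraries and is not independent evidence.

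The call of Ube2d3 depended on the libraries used and on the settings of the test, while its sign did not. The log2 fold change stayed between -0.85 and -0.71 when 1 library was left out. It passed the test only without EB3-0 (limma, adjusted p = 0.0154), and the adjusted p was 0.0639 to 0.130 without any one of the other 5 libraries. With EB3-1 and EB3-2 averaged as 1 library the adjusted p from limma was 0.118. With all 6 libraries kept, it was 0.0860 when genes of low level were not filtered out, and 0.0507 when eBayes was run without its intensity trend. After removal of the trends that tie each library's values to GC content and to cDNA length, the log2 fold change was -0.51 (limma, adjusted p = 0.0458).

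The other UBE2D genes, whose products share most of their sequence with UBE2D3, showed smaller differences or much lower levels. Ube2d2 had 25.6, 27.5 and 26.0 RPKM in the clones versus 30.4, 32.02 and 30.6 RPKM in EB3. All clones lay below EB3, but the log2 fold change of -0.23 did not pass (limma, adjusted p = 0.211). Ube2d1 had 21.6, 23.3 and 20.05 RPKM in the clones against 22.0, 25.1 and 24.6 RPKM in EB3, and its groups overlapped. Its log2 fold change was -0.14, with a 95% interval of -0.37 to 0.10 (limma, adjusted p = 0.524). Ube2dnl, grouped here by its symbol, had 0.965, 0.522 and 0.809 RPKM in the clones compared with 1.23, 2.21 and 1.96 RPKM in EB3. These values rest on 10 to 18 reads a clone and 25 to 44 reads an EB3 culture. The clones again lay below EB3, and the log2 fold change was -0.85 (limma, adjusted p = 0.123). Its mean reached the 1 RPKM needed for testing only through EB3, at 1.80 RPKM against 0.766 RPKM in the clones. Its lower value in the clones is therefore not independent evidence.

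**Figure D2:**
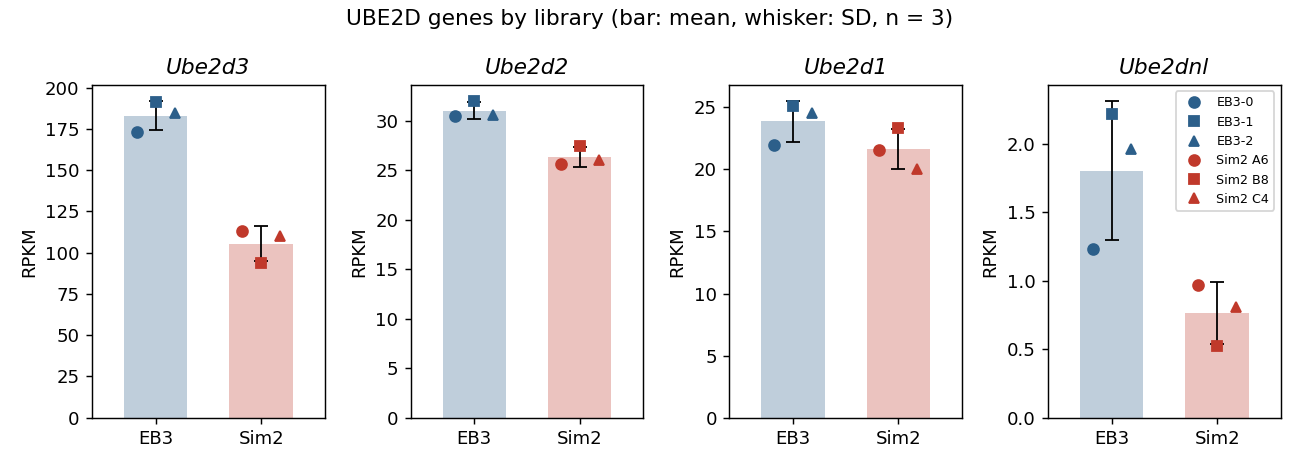
RPKM of the 4 UBE2D genes in each library (points), with the mean as a bar from 0 and the SD as a whisker (n = 3). The 3 clones of Ube2d3 sit between 93.6 and 113 RPKM, below the EB3 cultures at 173 to 191 RPKM, while the Ube2d1 points of both groups overlap.

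Within each library, Ube2d3 was set against the mean log2 level of Ube2d1 and Ube2d2. Of the windows of 100 bases, 48.8% in Ube2d2 and 0% in Ube2d1 had an exact match elsewhere, beside the 12.9% in Ube2d3. This log2 ratio was 2.24, 1.86 and 2.24 in A6, B8 and C4, and 2.72, 2.73 and 2.73 in EB3-0, EB3-1 and EB3-2. The 3 EB3 cultures were nearly alike and all clones lay below them, B8 farthest. The group means differed by -0.61 (exact permutation test, 2-sided p = 0.1, the smallest possible), and by -0.67 to -0.48 with 1 library left out. Because Ube2d3 was known to be lower when it was chosen, this ratio and the shares below are descriptions and not independent evidence. Ube2d3 made up 76.9 ± 0.120% of the RPKM summed over Ube2d1, Ube2d2 and Ube2d3 in EB3. In the clones it made up 68.6 ± 3.30% (SD, n = 3 each). Of the RPKM summed over all Ube2 genes, its share was 14.8 ± 1.43% in EB3 and 9.91 ± 0.761% in the clones. For Ube2c this share was 18.8 ± 1.41% in EB3 and 19.1 ± 1.46% in the clones. The sum over all Ube2 genes was 1241 ± 67.6 RPKM in EB3 and 1064 ± 27.9 RPKM in the clones (SD, n = 3 each). Without Ube2d3 the sum was 1058 ± 75.5 RPKM in EB3 and 958 ± 18.6 RPKM in the clones. In that sum EB3-0 stood apart at 1144 RPKM, against 1021 and 1008 RPKM in EB3-1 and EB3-2.

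The UBE2E genes encode close relatives of the UBE2D proteins with a longer N-terminal part. All 3 had every clone below every EB3 culture, as did 13.4% of all tested genes. Ube2e1 had 26.1, 22.4 and 28.3 RPKM in the clones versus 36.3, 38.6 and 35.1 RPKM in EB3. Its log2 fold change of -0.52, with a standard error of 0.11, did not pass (limma, adjusted p = 0.0758). Ube2e1 is on the study's list of genes nearest to a SIM2-bound region, and it overlaps the oppositely oriented Nkiras1, which had 5.65 to 6.83 RPKM in the clones against 9.23 to 9.97 RPKM in EB3. Whether counting used the strand was not stated, so reads of the shared part cannot be assigned to one of them. Ube2e2, its neighbour on chromosome 14, was far lower, at 2.26, 1.24 and 2.27 RPKM in the clones compared with 3.31, 2.94 and 3.04 RPKM in EB3. The log2 fold change of Ube2e2 was -0.60 (limma, adjusted p = 0.193). Ube2e3 had means of 28.2 ± 3.12 and 35.3 ± 0.832 RPKM (SD, n = 3 each), and a fold change of -0.33 on the log2 scale (limma, adjusted p = 0.160).

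Ube2a and Ube2b encode the homologs of yeast RAD6, which act in histone H2B ubiquitination and in tolerance of DNA damage. For both, the 3 clones lay below EB3, as in 13.4% of all tested genes. Ube2a had 23.9 ± 0.376 RPKM in the clones versus 31.2 ± 2.88 RPKM in EB3, and Ube2b had 24.9 ± 1.59 and 31.5 ± 1.89 RPKM (SD, n = 3 each). The log2 fold changes were -0.37 and -0.33, and neither passed (limma, adjusted p = 0.113 and 0.136). Ube2t, which monoubiquitinates FANCD2 in the Fanconi anaemia pathway, and Ube2w, which attaches ubiquitin to protein N termini, also had every clone below EB3. Their log2 fold changes were -0.31 and -0.36 (limma, adjusted p = 0.265 and 0.164). For Ube2t the EB3 values were spread, at 30.4 RPKM in EB3-0 but 23.7 and 22.5 RPKM in EB3-1 and EB3-2.

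Ube2n is the catalytic E2 for K63-linked chains, and Ube2v1 and Ube2v2 are its partners, which lack the catalytic cysteine. Ube2n had 30.4, 28.1 and 31.5 RPKM in the clones against 36.2, 34.0 and 34.1 RPKM in EB3, without overlap, and a log2 fold change of -0.21 (limma, adjusted p = 0.265). Ube2v2 had 1.75, 1.67 and 2.02 RPKM in the clones compared with 2.01, 3.34 and 2.79 RPKM in EB3, so that C4 and EB3-0 overlapped. Its log2 fold change was -0.46 (limma, adjusted p = 0.268). Ube2v1, the other member near a SIM2-bound region by the study's list, had 19.3, 20.5 and 19.5 RPKM in the clones versus 23.0, 18.2 and 20.4 RPKM in EB3. The groups overlapped, and the log2 fold change of -0.05 turned to 0.04 without EB3-0. Of their windows of 100 bases, 70.4% in Ube2v1, 34.0% in Ube2v2 and 24.1% in Ube2n matched exactly elsewhere in the genome.

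The E2 enzymes of the endoplasmic reticulum and of K48-linked chains did not move as a group. Of these 6 genes (Ube2g1, Ube2g2, Ube2j1, Ube2j2, Ube2k and Ube2r2), 2 had a negative and 4 a positive log2 fold change, with a median of 0.01 that was -0.02 with GC and length trends removed and -0.01 with libraries scaled to the same median. Ube2g1 had 19.9, 20.01 and 22.4 RPKM in the clones against 24.4, 30.7 and 29.3 RPKM in EB3. The clones lay below EB3, and its log2 fold change was -0.42 (limma, adjusted p = 0.123). Ube2j1 is an E2 anchored in the membrane of the endoplasmic reticulum. It was the only tested member with all clones above EB3, a pattern seen in 12.7% of all tested genes. It had 5.45, 5.53 and 5.90 RPKM in the clones compared with 4.71, 5.11 and 4.80 RPKM in EB3, a log2 fold change of 0.19 (limma, adjusted p = 0.463). Its relative Ube2j2 had a log2 fold change of 0.07, with values of 17.3, 20.4 and 17.6 RPKM in the clones versus 20.2, 15.5 and 17.0 RPKM in EB3, and here the groups overlapped.

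The E2 enzymes for NEDD8 showed small differences. Ube2m is on the study's contact list, and had 68.2, 56.4 and 58.8 RPKM in the clones compared with 77.8, 61.8 and 60.7 RPKM in EB3. The groups overlapped, and the log2 fold change was -0.12 (limma, adjusted p = 0.652). Ube2f, the second E2 for NEDD8, had a log2 fold change of -0.03. Of the 2 partners of the APC/C, Ube2c had a log2 fold change of -0.20 (limma, adjusted p = 0.436), and Ube2s, which extends the chains, had -0.05. For Ube2s, EB3-0 stood apart at 37.2 RPKM against 23.5 and 24.4 RPKM in EB3-1 and EB3-2, and 88.8% of its windows of 100 bases had an exact copy elsewhere.

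Among the remaining long or divergent members, Ube2q2 had 9.97, 10.4 and 9.97 RPKM in the clones versus 12.9, 15.3 and 13.4 RPKM in EB3. The clones lay below EB3, and the log2 fold change was -0.43 (limma, adjusted p = 0.109). Ube2h had the largest positive value of all tested members, at 0.32 (limma, adjusted p = 0.347). Its values were 5.21, 6.75 and 4.67 RPKM in the clones against 4.70, 3.94 and 4.23 RPKM in EB3, so the groups overlapped by C4 and EB3-0. Ube2l3 had 70.5, 82.7 and 71.0 RPKM in the clones compared with 76.6, 69.9 and 67.9 RPKM in EB3. Ube2o, a large enzyme that joins E2 and E3 functions, had 27.4, 25.8 and 25.3 RPKM in the clones versus 27.7, 23.6 and 24.8 RPKM in EB3. Ube2l3 and Ube2o overlapped between the groups and had log2 fold changes of 0.06 and 0.05. Ube2cbp, which the symbol rule takes in, encodes a binding protein of UBE2C and not an E2 enzyme, and had a log2 fold change of -0.26 with overlapping groups.

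**Figure D3:**
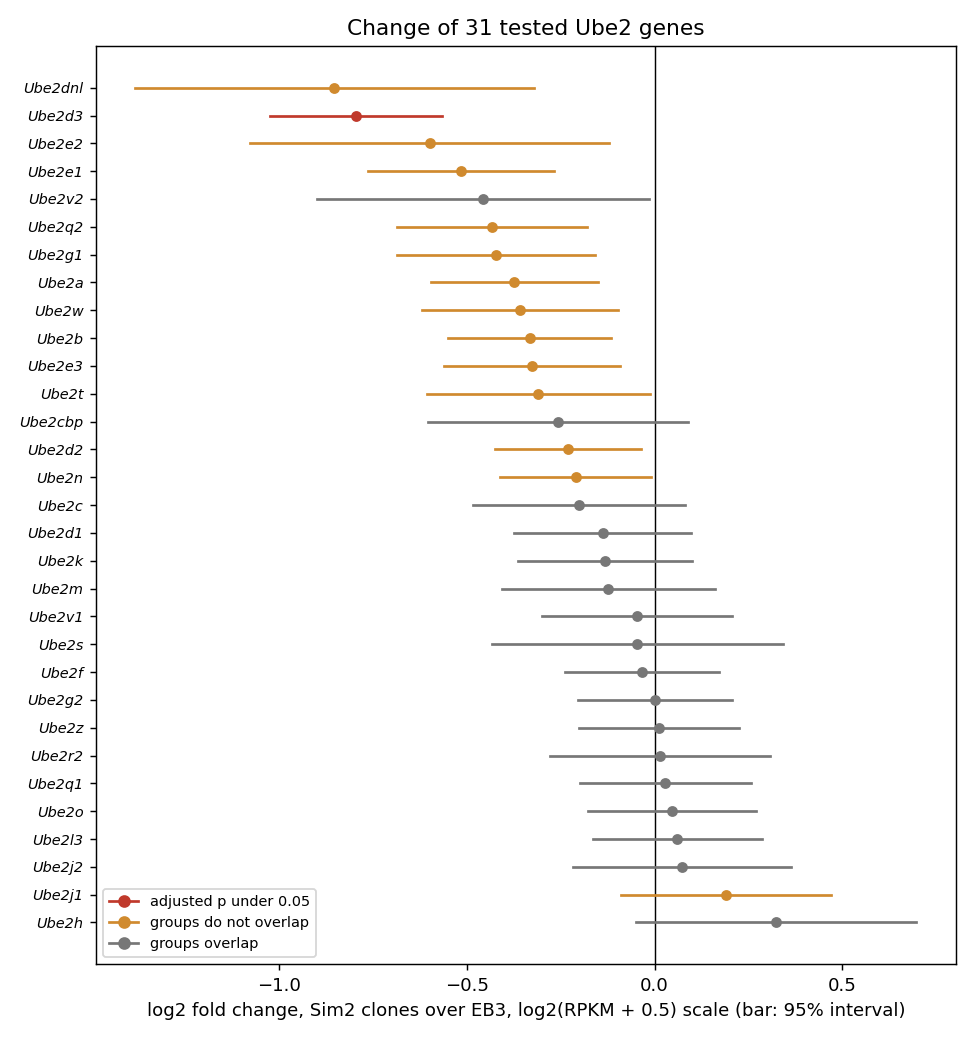
The log2 fold change of 31 tested Ube2 genes (points, clones over EB3, on the log2(RPKM + 0.5) scale) is shown with its 95% interval from limma, ordered by value. Ube2d3 at -0.80 is the only gene in red (adjusted p under 0.05), 13 other genes in orange have groups that do not overlap, and 12 of these lie left of 0.

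Across the family the values leaned to the negative side. Of the 32 tested members 22 (68.75%) had a negative log2 fold change, against 50.9% of all tested genes. The median over the members was -0.17, against -0.01 over all tested genes. At an unadjusted p under 0.05, 14 members were lower and 0 were higher, where 9.36% of all tested genes were lower and 8.40% were higher. All clones lay below all EB3 cultures in 13 members and above them in 1, against 13.4% and 12.7% of all tested genes. Every member of the UBE2D, UBE2E, RAD6 and K63 groups was on the negative side, with medians of -0.51, -0.52, -0.35 and -0.21, except that Ube2d1 stood at 0.01 once GC and length trends were removed and Ube2v1 at 0.04 without EB3-0. With GC and length trends removed the medians of these groups were -0.32, -0.34, -0.13 and -0.08. The UBE2D medians include Ube2d3 and Ube2dnl. Before removal of these trends they stood at -0.80 and -0.85, beside -0.23 in Ube2d2 and -0.14 in Ube2d1. The direction was shared by the 3 clones, for which the median over the tested members, relative to the mean of EB3, stood at -0.15 (A6), -0.18 (B8) and -0.18 (C4). Since most adjusted p-values missed the threshold, these counts describe the family and name no further gene as changed. Member counts and medians here and below include Ube2d3, known to be lower when chosen, and Ube2dnl, tested only through its EB3 level.

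Many of the members with lower values in the clones had AT-rich transcripts. The 13 members with all clones below EB3 had a median GC content of 44.7%, against 50.8% in the other 19 tested members and 50.8% over all tested genes. Ube2d3 had the lowest of these 13, at 38.5%. The same trend ran through all tested genes, whose median log2 fold change went from -0.16 under 42% GC to 0.08 over 54% GC. The share of all tested genes with every clone below EB3 was 25.3% in the lowest of these GC classes and 5.48% in the highest. Among members, every clone lay below EB3 in 5 of 7 genes under 42% GC, in 5 of 7 at 42 to 46%, in 2 of 6 at 46 to 50%, in 1 of 6 at 50 to 54%, and in 0 of 6 above that. These GC classes were chosen after the values were seen. With GC and length trends removed, 7 members were lower and 1 was higher at an unadjusted p under 0.05, against 9.81% and 9.25% of all tested genes, and 9 had all clones below EB3, against 14.2%. In that fit 26 of the 32 tested members (81.25%) had a negative log2 fold change, against 51.4% of all tested genes. The median over the members was then -0.12, and Ube2d3 was again the only member called.

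**Figure D4:**
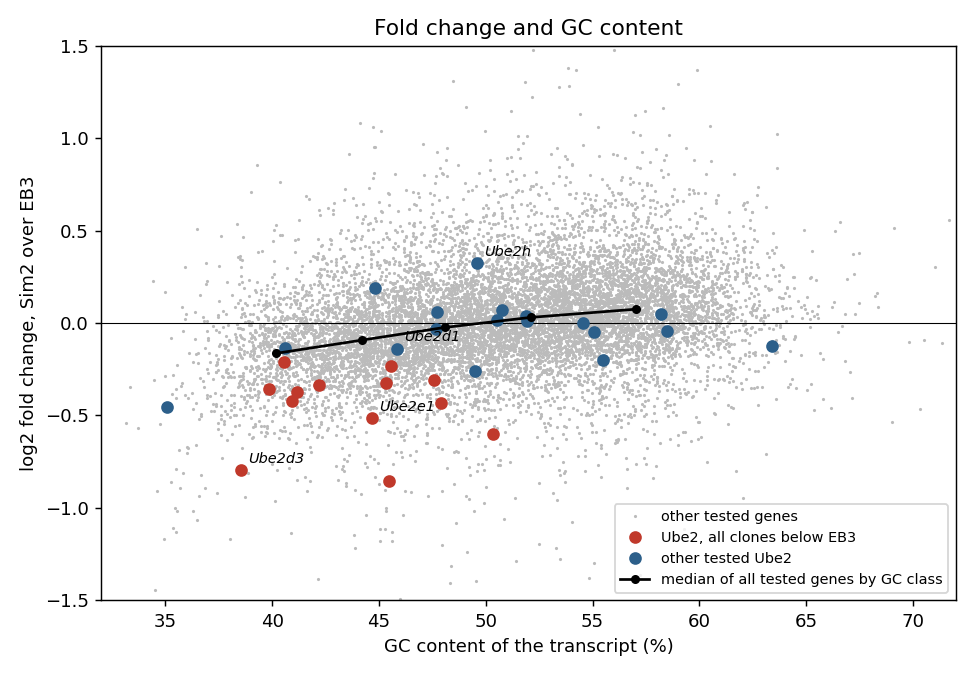
The log2 fold change (clones over EB3) of 11128 tested genes in grey, with 18 more outside the axes, is plotted against the GC content of the transcript in percent, with the 13 Ube2 genes with all clones below EB3 in red and the other tested Ube2 genes in blue. The black line joins the medians of 5 GC classes and climbs from -0.16 to 0.08, and the red points lie below it, at 38.5 to 50.4% GC.

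The library EB3-0 stood apart from the other EB3 cultures, in a way that went with the length of the cDNA. In all tested genes, the log2 level in EB3-0 relative to the mean of EB3-1 and EB3-2 had a median of 0.35 for cDNAs under 1 kb and -0.31 for those over 4 kb. In the tested members the medians were 0.32 in 3 genes under 1 kb and 0.06 in 4 genes over 4 kb. Without EB3-0, 6 members passed (limma, adjusted p under 0.05), all of them lower in the clones, against 3.45% of all tested genes that were then called lower. These were Ube2d3, Ube2dnl, Ube2e1, Ube2g1, Ube2q2 and Ube2w, with log2 fold changes of -0.83, -1.05, -0.52, -0.52, -0.48 and -0.43. Among them, Ube2d3 was known to be lower when chosen, and Ube2dnl was tested only through its EB3 level. Without EB3-1, without EB3-2 or without any one clone, 0 members passed by limma, with 9 to 13 of 32 at an unadjusted p under 0.05, where 1400 to 1781 of the 11595 tested genes had one.

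Copies elsewhere in the genome were found for members on both sides of the comparison. Of the 13 members with all clones below EB3, 9 had at least 1 copy and 4 had none, and of the other 19 tested members 12 had a copy and 7 had none. The 4 without a copy were Ube2a, Ube2dnl, Ube2e2 and Ube2t. More than 10% of the windows of 100 bases had an exact match elsewhere in 4 of the 13 and in 5 of the 19. Alignments to repeats were not told apart from copies of the gene, and Ube2j2, among the 19, aligned to 192 loci. The part of shared reads in the fold changes was not tested.

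The rest of the pathway was examined with 7 lists written by role. These were E1 enzymes, other-named E2 and E2-like proteins, ubiquitin and its relatives, APC/C subunits, RING and RBR ligases, HECT ligases and the 20S proteasome. 0 of their 99 tested genes passed the test over all genes in either direction (limma, adjusted p under 0.05), where 81 of all 11595 tested genes did. An unadjusted p under 0.05 was found in 10 of the 99 (10.1%), against 17.8% of all tested genes. The lowest p among the E1 genes belonged to Nae1, a subunit of the E1 for NEDD8. Nae1 had 6.02, 6.10 and 6.83 RPKM in the clones versus 7.44, 8.71 and 7.76 RPKM in EB3, a log2 fold change of -0.31 (limma, adjusted p = 0.245). Among the other-named E2 and E2-like genes it was Tsg101, an inactive E2-like protein of endosomal sorting. Tsg101 had 19.2, 15.5 and 20.3 RPKM in the clones versus 26.4, 21.8 and 22.3 RPKM in EB3, and its log2 fold change was -0.35 (limma, adjusted p = 0.214). Among the APC/C subunits it was Anapc10, with 7.67, 6.27 and 6.86 RPKM in the clones compared with 8.997, 8.39 and 8.27 RPKM in EB3 and a log2 fold change of -0.29 (limma, adjusted p = 0.272). The groups did not overlap for any of these 3 genes, each picked for the lowest p of its list. In these lists every clone lay below EB3 in 1 of 9, 1 of 7 and 1 of 14 tested genes, against 13.4% of all tested genes. In the proteasome it was Psma4, at 103, 99.5 and 99.3 RPKM in the clones compared with 140.4, 111 and 103 RPKM in EB3. Its groups overlapped by A6 and EB3-2, and the log2 fold change was -0.21 (limma, adjusted p = 0.402). Across the proteasome list 12 of 14 tested genes were negative, but 7 of 14 with the length trend removed and 4 of 14 with GC and length trends removed.

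The E3 ligases had more positive than negative values, a balance that moved with the treatment of cDNA length. Of the 16 HECT ligases, 14 had a positive log2 fold change with a median of 0.10, and of the 28 RING and RBR ligases 17 had one, with a median of 0.05. With the length trend removed, 8 of 16 and 14 of 28 were positive, with medians of 0.0017 and -0.0020. With GC and length trends both removed, the numbers were 8 of 16 and 17 of 28. Birc3, a RING ligase of NF-kappaB signalling, had 3.20, 3.34 and 2.82 RPKM in the clones versus 1.34, 2.27 and 1.62 RPKM in EB3, with a log2 fold change of 0.71 (limma, adjusted p = 0.117). Every clone lay above every EB3 culture, and the gene, picked for the lowest p of its list, did not pass the test. In the RING and RBR list 3 of 28 tested genes had all clones above EB3, against 12.7% of all tested genes.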

How the data were processed

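mRNA was sequenced from 6 libraries, 3 per group, and groups were taken from the sample labels. The authors mapped paired reads to mm9 with BWA, counted reads over RefSeq exons and deposited RPKM for each gene. Multiple mapping and strand use were not stated. Multiplied by the cDNA length, RPKM values came out as whole reads after division by 1 constant per library (100% within 0.01), which gave the depth. 0 columns of sample values were left unused.

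Values were taken as log2(RPKM + 0.5), and the 11595 genes with a mean of at least 1 RPKM were compared with limma 3.58.1 (lmFit, eBayes with trend, R 4.3.3), adjusted by Benjamini-Hochberg over all of them. The procedure was tested on simulated data. Members and lists were chosen with earlier results of these data known. Every Ube2 gene was considered. Values per library were given for the UBE2D genes, called genes, the 5 largest rises and falls, the 3 highest levels and the genes on the study's SIM2 lists, and in each pathway list for the gene with the lowest p; 3 genes that these rules cover are not reported here by name but are counted. Further members were named after their values were seen. GC content was that of the longest coding transcript of an mm9 annotation (96.1% of tested genes). Natural splines of 5 degrees of freedom removed GC and length trends. Copies were alignments of members' transcripts to mm9 outside their own locus with BLAST 2.17.0, at 88% identity or more over at least 150 bases; these limits were set after the data were seen. The alternatives were other pseudocounts, filters, scalings, spread estimates and libraries left out. P-values measure the spread between these cultures.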

Additional observations from a re-analysis of the deposited data

How the results depend on the processing

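The number of Ube2 genes called was 1 as reported, and 0 with no filter on low values, with EB3-1 and EB3-2 averaged as 1 library and with eBayes without a trend. It was 0 to 6 with 1 library left out. The log2 fold change of Ube2d3 kept its sign and was -0.80 with no filter (adjusted p from limma 0.0860), -0.78 with the 2 cultures averaged (0.118) and -0.80 without a trend (0.0507). With 1 library left out it was -0.85 to -0.71. The median over the members was -0.14 with no filter, -0.13 with a mean of at least 5 RPKM, -0.20 with the cultures averaged, -0.15 with the length trend removed, -0.12 with GC and length trends removed, and -0.21 to -0.15 with 1 library left out. Of the 99 tested genes of the pathway lists, 1 was called with the length trend removed, 1 with GC and length trends removed (Rbx1) and 0 to 6 with 1 library left out. The number called over all 11595 tested genes was 81. It was 6 to 694 with 1 library left out, 238 with the length trend removed and 209 with GC and length trends removed. With no filter it was 23 of 22602 genes. Small fold changes turned in sign. Ube2z had -0.017 with the cultures averaged, -0.018 with the length trend removed, -0.074 with GC and length trends removed and -0.0034 with libraries scaled to the same median. Ube2o had -0.021 and -0.16 in the length and the GC and length fits, and Ube2d1 had 0.0091 in the latter. With 1 library left out, the range was -0.038 to 0.071 for Ube2z, -0.010 to 0.18 for Ube2j2, -0.013 to 0.11 for Ube2l3, -0.0027 to 0.11 for Ube2o and -0.13 to 0.038 for Ube2v1. The causes of these changes were not tested, except that fewer libraries and more tested genes follow from the settings themselves. The difference between Ube2d3 and its paralogs kept its sign in all 15 alternatives. That difference reuses the values by which Ube2d3 was chosen, so it is a description. No paired analysis was possible because the clones and the EB3 cultures share no replicate numbers. Depth limits the lowest members (Ube2u, Ube2ql1, Ube2dnl).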
